A study of Bos taurus with 6 samples.

Results

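The WNT pathway genes described here were the 59 of the 47249 genes in the deposited gene table whose symbol names a WNT ligand, a frizzled receptor, the co-receptor LRP6, an R-spondin or LGR receptor, a secreted antagonist of the SFRP or DKK families, a dishevelled protein, a part of the beta-catenin destruction complex, beta-catenin itself, or a TCF or LEF factor. They were chosen by symbol alone and not by their values. The libraries came from testes of untreated Wandong cattle, a local Chinese breed, with 3 immature calves aged 3 months and 3 andrologically mature bulls aged 3 years, and 1 library per animal. Total RNA was depleted of ribosomal RNA and sequenced, and levels are FPKM, in which fragments are scaled to transcript length and to the depth of the library, so that genes can be set side by side. The 2 groups differ only in age as far as the labels say, and neither carries a transgene or a treatment.

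WNT proteins are secreted lipid-modified ligands that bind a frizzled receptor together with an LRP co-receptor. Without a ligand, a complex of AXIN, APC and the kinases GSK3 and casein kinase 1 marks beta-catenin for breakdown. With a ligand, dishevelled proteins help to stop that complex, and beta-catenin enters the nucleus and acts with TCF and LEF factors. SFRP proteins bind WNT ligands, DKK proteins mostly act on LRP, and R-spondins acting through LGR receptors raise the amount of receptor on the cell surface. In the testis, WNT signals are known to pass among Sertoli cells, interstitial cells and spermatogonia. GSK3 also acts outside this pathway, and its alpha form is known to be needed for sperm motility.

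One library went against its label. In the library labelled calf 3 the Sertoli cell genes GATA4, FSHR and WT1 and the Leydig cell genes CYP11A1 and CYP17A1 were listed at 0. The summed FPKM of 8 Sertoli cell markers was 2821 and 2693 in calf 1 and calf 2, 438 in the library labelled calf 3, and 380 to 398 in the bulls. CLU alone held 423 of the sum in the library labelled calf 3, where 6 of the 8 markers had their lowest value. The summed FPKM of 5 oligodendrocyte markers was 12343 in the library labelled calf 3 and 3.35 to 10.1 in the other libraries. All 5 astrocyte markers and all 5 neuron markers were also highest there, with sums of 2092 and 482 against at most 28.1 and 7.76 elsewhere. Correlations of log2(FPKM + 1) over genes were 0.979 between calf 1 and calf 2 and 0.764 and 0.770 between each of them and the library labelled calf 3. The 6 spermatid markers summed to at most 2.79 in the calves and to 13046 to 14757 in the bulls. The main fold changes that follow are therefore given with and without this library. In the values that follow, calves are in the order calf 1, calf 2 and the library labelled calf 3, and bulls in the order bull 1, bull 2 and bull 3.

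The comparison asked how the transcript levels of these genes differed between the immature and the mature testis. LEF1 and WNT3A rose in bulls, and DKK3, SFRP1, LRP6, DVL1, FZD1, FZD7 and WNT9A fell. These are the calls of limma on log2(FPKM + 1), with a Benjamini-Hochberg adjusted p below 0.05 over all genes tested and a change, bull minus calf, of 1 or more on the log2 scale. A gene was tested where 3 or more of the 6 libraries reached an FPKM of 1, which left 32 of the 59 genes, against 38.3% of the whole table. WNT3A passed this filter through the bulls alone and FZD7 and WNT9A through the calves alone, so these 3 had to differ. Of all 18115 genes tested, 35.7% were called higher in bulls and 9.61% lower, against 2 and 7 of the 32. All bulls lay above all calves in 9 of the 32 and below all calves in 13, against 46.1% and 21.3% of all genes tested (67.4% in either direction). The median log2 fold change was -0.32 over the 32 genes and 0.43 over all genes tested.

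Leaving out the library labelled calf 3 changed which genes were called. With the same filter, 30 of the genes were tested. Of them, 4 were higher (LEF1, WNT3A, WNT3 and FZD3) and 4 lower (DKK3, FZD1, FZD8 and WNT6), while 39.5% and 12.2% of all genes were called. FZD7 and WNT9A could not be tested, as only 2 calves were left to reach an FPKM of 1. WNT3A still passed through the bulls alone. When the filter was lowered after seeing the data, so that 2 of these 5 libraries had to reach an FPKM of 1 and genes of calf 1 and calf 2 could be tested, 37 genes were tested, with the same 4 higher and 10 lower. All 7 added genes passed through calf 1 and calf 2 alone, so their direction was fixed by the filter, and they make up 6 of the 10 lower calls. The lower genes were DKK3, FZD1, FZD2, FZD7, FZD8, WNT2B, WNT6, WNT9A, RSPO3 and TCF7, and 37.7% and 13.9% of all genes were called. In bulk tissue, fewer cells of a type and less RNA per cell cannot be told apart.

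**Figure D1:**
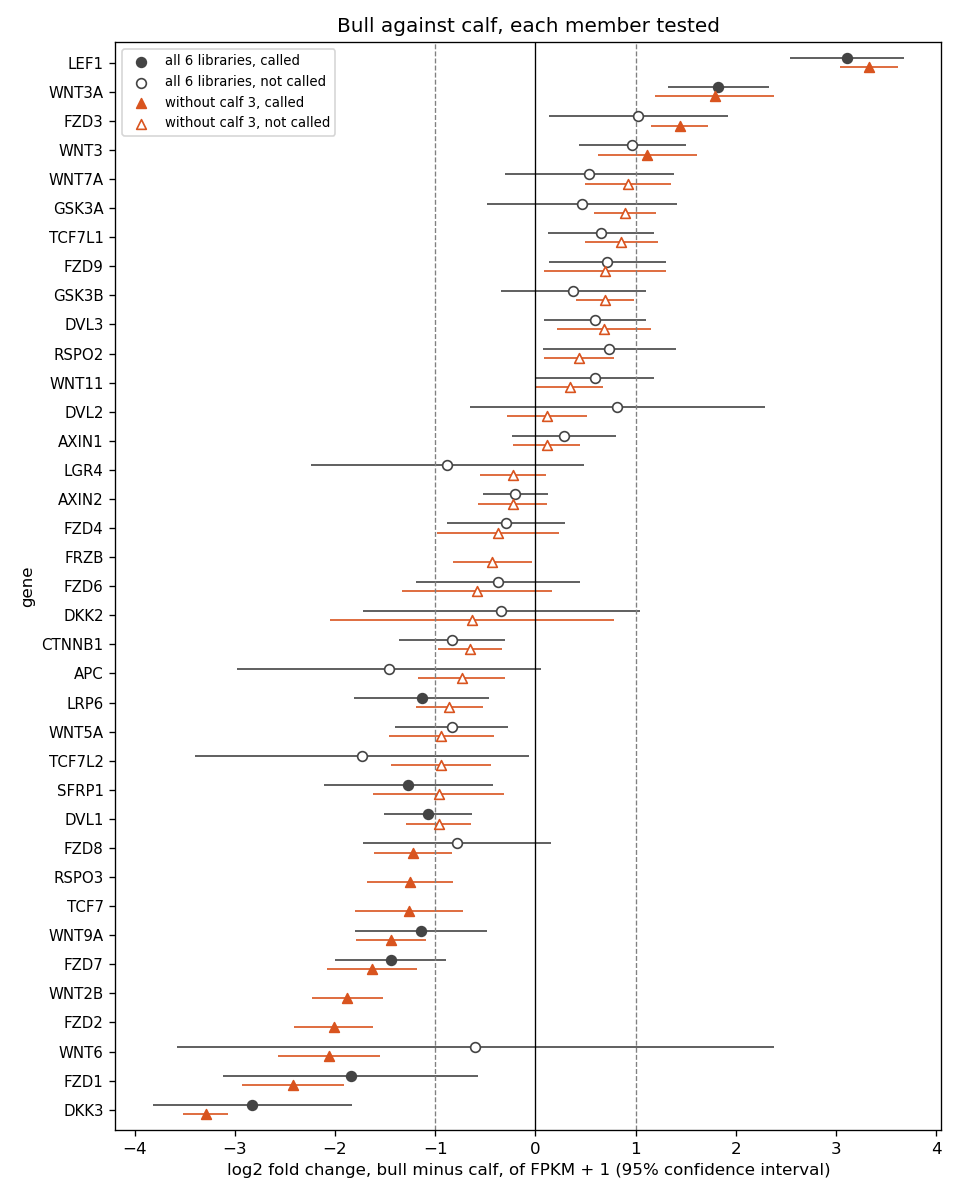
Log2 fold change of FPKM + 1, bull minus calf, for the 37 genes tested, with 95% confidence intervals. Circles are fits on all 6 libraries and triangles are the added fits without the library labelled calf 3, filled where called. LEF1 lies at 3.11 and 3.33 and DKK3 at -2.82 and -3.29, and the interval of WNT6 spans -3.58 to 2.38 with all libraries.

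The scaling of the libraries moved these counts. Of all calls over genes, 78.8% were higher in bulls as deposited, 66.5% after the libraries were set to a common total without small non-coding RNA families, and 54.5% after quantile normalization. The median log2 fold change of all genes tested was 0.10 and -0.13 in the latter 2, a shift of more than 0.1 from 0.43. Under the common total 2 of 33 tested WNT pathway genes were higher and 9 lower, against 30.3% and 15.2% of all genes, and under quantile normalization 2 and 12, against 25.9% and 21.6% of all genes. The 2 higher and 7 lower genes named above were called in the same direction under both scalings.

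**Figure D2:**
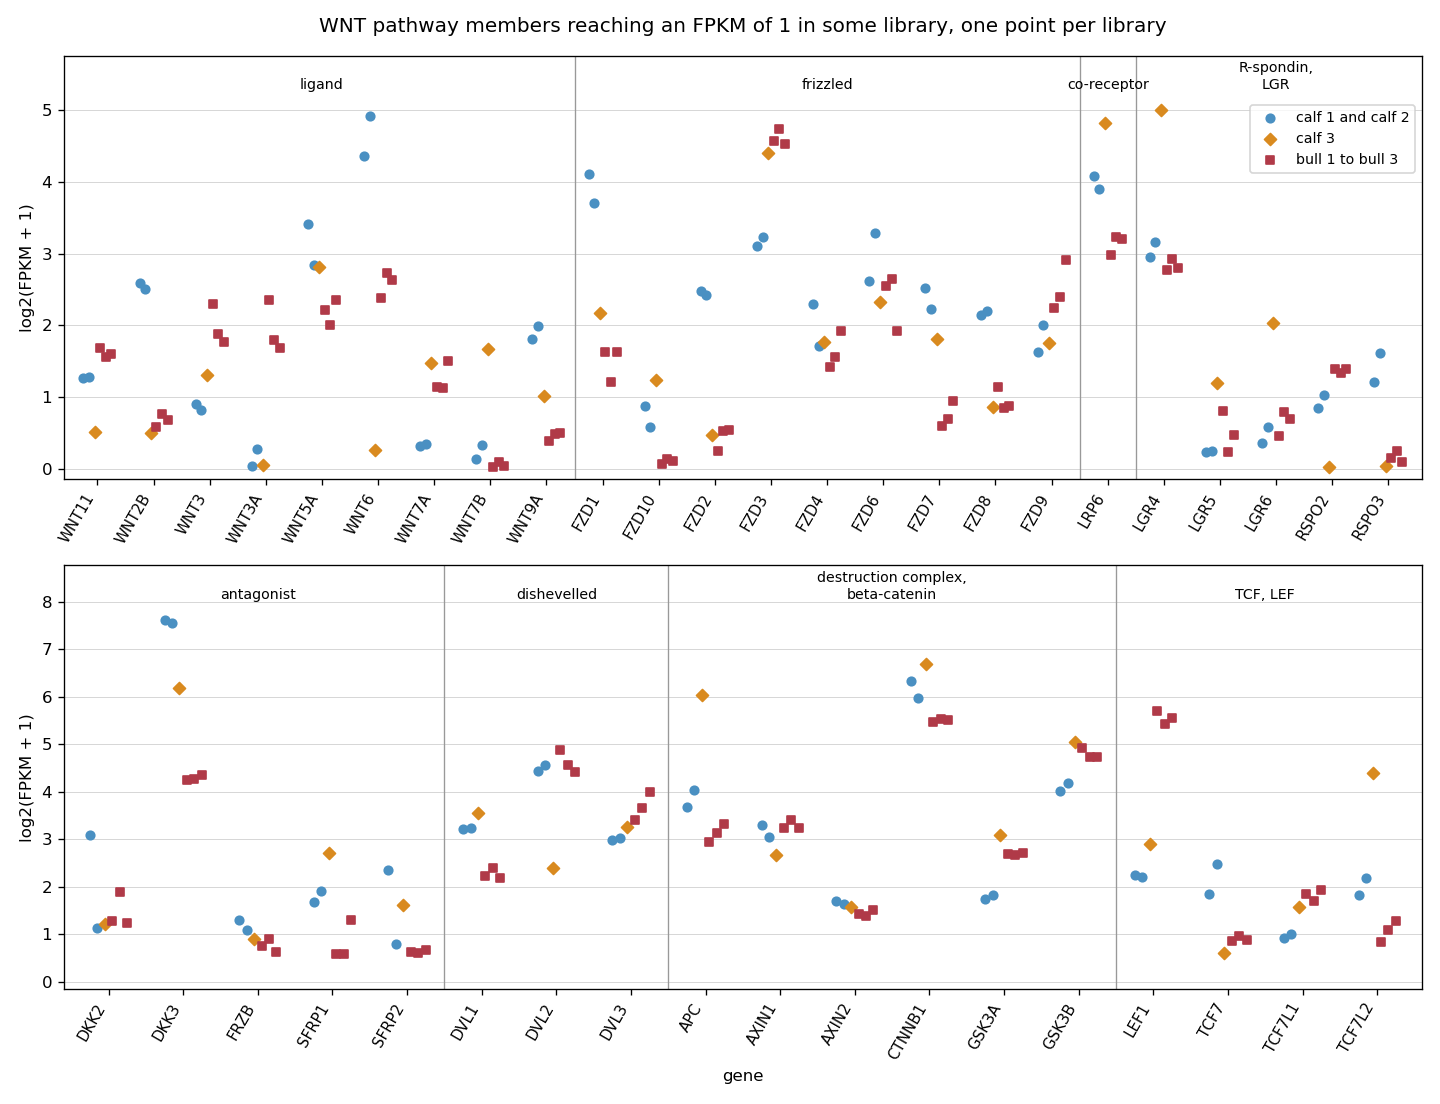
Level of the 42 genes that reached an FPKM of 1 in some library, as log2(FPKM + 1), grouped by role, with 1 point per library. Circles are calf 1 and calf 2, diamonds the library labelled calf 3, and squares the 3 bulls. DKK3 is the highest antagonist and CTNNB1 the highest gene of its group in every library, and LEF1 stands at 42.0 to 50.7 FPKM in the bulls and 3.61 to 6.43 FPKM in the calves.

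Of the 19 ligands, 7 were tested. With all libraries 1 rose (WNT3A) and 1 fell (WNT9A), against 35.7% and 9.61% of all genes tested. The filter fixed the direction of both. Summed over the 19, ligand FPKM was 41.7, 47.8 and 15.7 in the calves and 21.5, 19.7 and 20.1 in the bulls. WNT6 made up much of this sum in calf 1 and calf 2. The FPKM of WNT6 (chromosome 2, 106822087 to 106835094) was 19.5, 29.4 and 0.198 in the calves and 4.23, 5.63 and 5.23 in the bulls. Calf 1 and calf 2 lay above all bulls and the library labelled calf 3 below all of them, so the groups overlapped. Its log2 fold change was -0.60 (SE 1.22, limma adjusted p = 0.70) with all libraries and -2.06 (limma adjusted p = 0.000201) without the library labelled calf 3.

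WNT5A, a ligand best known for signals that do not pass through beta-catenin, was the next highest ligand. Its FPKM was 9.62, 6.20 and 6.05 in the calves and 3.63, 3.03 and 4.09 in the bulls. All bulls lay below all calves, the library labelled calf 3 included. The log2 fold change of -0.84 (SE 0.23, limma adjusted p = 0.023) did not reach the size set for a call, nor did -0.94 without the library labelled calf 3. It passed that size under quantile normalization (-1.34) and the common total (-1.14), and for its Ensembl transcript WNT5A-201 alone (-1.0, limma adjusted p = 0.015).

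WNT9A and WNT2B were ligands at their highest in calf 1 and calf 2. WNT9A had an FPKM of 2.51, 2.96 and 1.01 in the calves and 0.311, 0.403 and 0.414 in the bulls. It passed the filter through the calves alone, which fixed its direction and kept the groups apart. The log2 fold change was -1.14 (SE 0.27, limma adjusted p = 0.0123), or -1.44 in the added fit without the library labelled calf 3. The call was lost when any bull was left out (limma adjusted p = 0.0731 to 0.0839). WNT2B had an FPKM of 5.05, 4.69 and 0.418 in the calves and 0.492, 0.704 and 0.598 in the bulls. Here the library labelled calf 3 lay below the bulls. WNT2B was tested only in the added fit, which it passed through calf 1 and calf 2 alone, with a log2 fold change of -1.88 (limma adjusted p = 0.000103).

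WNT3A and WNT3, closely related ligands that act through beta-catenin, had their higher values in bulls. For WNT3A (chromosome 7, 3035810 to 3087361), the values were 0.0313, 0.204 and 0.0385 FPKM in the calves and 4.12, 2.48 and 2.23 in the bulls. It lay far below 1 in every calf library and above 2.2 in every bull. WNT3A passed the filter through the bulls alone, which fixed its direction. Its rise on the log2 scale was 1.83 (SE 0.20, limma adjusted p = 0.000562), and 1.79 without the library labelled calf 3. On this scale the addition of 1 to each value understates the change of a gene so low in calves.

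For WNT3, FPKM was 0.864, 0.763 and 1.48 in the calves and 3.90, 2.66 and 2.40 in the bulls, with all bulls above all calves. Its log2 fold change was 0.97 (SE 0.22, limma adjusted p = 0.0108), short of a call, and 1.12 (limma adjusted p = 0.00236) without the library labelled calf 3. Transcript values place most of this outside the Ensembl model. The Ensembl transcript WNT3-201 held 15.6% of the bull value, with an FPKM of 0.548, 0.540 and 0.311 in the bulls and 0.123, 0.0181 and 0.954 in the calves, and the groups overlapped. An assembled transcript of the same locus (chromosome 19, 45430553 to 45440509) held 3.12, 1.69 and 0.819 in the bulls.

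The other tested ligands, WNT11 and WNT7A, were not called with or without the library labelled calf 3. WNT7A had an FPKM of 0.242, 0.270 and 1.79 in the calves and 1.20, 1.17 and 1.83 in the bulls. Its Ensembl transcript held all of the calf value and 29.9% of the bull value, and the rest of the bull value lay in 4 assembled transcripts named as antisense, listed at 0 in all 3 calf libraries. Of the 12 ligands that failed the filter, 10 were below an FPKM of 1 in every library, and WNT8A was listed at 0 in all 6. WNT4, a ligand known from the developing ovary, was at most 0.594 FPKM, in the library labelled calf 3.

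Of the 10 frizzled receptors, 7 were tested. With all libraries FZD1 and FZD7 fell and none rose, against 9.61% and 35.7% of all genes tested. FZD3 was called higher only in the fits that left out the library labelled calf 3 or weighted the libraries by their spread. Summed frizzled FPKM was 49.4, 47.5 and 38.2 in the calves and 37.4, 40.7 and 38.9 in the bulls, so the ranges overlapped. Within these sums, FZD1 was the highest in calf 1 and calf 2, and FZD3 in the library labelled calf 3 and in all bulls.

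In FZD1 (chromosome 4, 8662940 to 8670064), levels were 16.2, 12.1 and 3.50 FPKM in the calves and 2.09, 1.31 and 2.1 in the bulls. All calves lay above all bulls, with the library labelled calf 3 nearest to them. Bulls minus calves gave a log2 fold change of -1.84 (SE 0.52, limma adjusted p = 0.0248), and -2.42 (limma adjusted p = 0.000103) without the library labelled calf 3. With 1 of the other 5 libraries left out in turn it stayed below 0 but was not called.

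FZD7 and FZD2 are close relatives of FZD1. FZD7 had an FPKM of 4.75, 3.68 and 2.51 in the calves and 0.511, 0.615 and 0.923 in the bulls. It passed the filter through the calves alone, which fixed its direction and kept the groups apart. The log2 fold change was -1.44 (SE 0.23, limma adjusted p = 0.00231), or -1.63 in the added fit. FZD2 had 4.59, 4.35 and 0.387 in the calves and 0.190, 0.442 and 0.449 in the bulls. The library labelled calf 3 lay among the bulls, and FZD2 was tested only in the added fit, through calf 1 and calf 2 alone, at -2.01 (limma adjusted p = 0.000117). The same pattern held for FZD8, at 3.42, 3.62 and 0.819 in the calves and 1.20, 0.805 and 0.841 in the bulls, with a log2 fold change of -0.78 (limma adjusted p = 0.132) that became -1.22 (limma adjusted p = 0.000536) without the library labelled calf 3.

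FZD3, a receptor known from planar cell polarity and axon growth, went the other way. FPKM of FZD3 (chromosome 8, 10150817 to 10238564) was 7.63, 8.40 and 20.2 in the calves and 22.7, 25.6 and 22.1 in the bulls. All bulls lay above all calves, but the library labelled calf 3 came close to them. In limma the log2 fold change was 1.03 (SE 0.37, limma adjusted p = 0.0544), and 1.44 (limma adjusted p = 9.06e-05) without the library labelled calf 3. FZD9 had a smaller difference in the same direction, 0.72 (limma adjusted p = 0.0438) and 0.70 without the library labelled calf 3, below the size set for a call. FZD4 and FZD6 overlapped between groups. Ensembl transcripts held 98.9% of the FZD4 value in calves and 58.3% in bulls. Their sum was 3.91, 2.24 and 2.37 in the calves and 0.888, 1.12 and 1.72 in the bulls, without overlap. The log2 fold change of that sum was -0.76 (limma adjusted p = 0.0463), not called.

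The co-receptor LRP6 (chromosome 5, 97526603 to 97700083) stood at 16.0, 14 and 27.4 FPKM in the calves and 6.89, 8.40 and 8.19 in the bulls. All bulls lay below all calves, and the highest value was that of the library labelled calf 3. On the log2 scale the change was -1.13 (SE 0.27, limma adjusted p = 0.0139) with all libraries. Without the library labelled calf 3 it was -0.86 (limma adjusted p = 0.00163), past the p but not the size. The call was also lost when any bull was left out, with log2 fold changes of -1.06 to -1.18. LRP5 was not analysed here.

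R-spondins and their LGR receptors were low, with LGR4 as the exception. LGR4 had an FPKM of 6.71, 7.96 and 31.2 in the calves and 5.83, 6.57 and 5.95 in the bulls. All calves lay above all bulls, by little in calf 1 and by far in the library labelled calf 3. Its log2 fold change of -0.88 was not called (limma adjusted p = 0.225), nor was -0.23 without that library. RSPO3 had 1.32, 2.07 and 0.0263 in the calves and 0.110, 0.187 and 0.0660 in the bulls, and was tested only in the added fit, through calf 1 and calf 2 alone, which fixed its direction, at -1.25 (limma adjusted p = 0.00108).

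RSPO2 was low in all libraries. Its gene FPKM was 0.794, 1.04 and 0.0159 in the calves and 1.61, 1.52 and 1.62 in the bulls, all bulls above all calves, and the difference was not called (0.74, limma adjusted p = 0.0606, and 0.43 without the library labelled calf 3). The Ensembl transcript RSPO2-201 had 0.700, 0.380 and 0 in the calves and was listed at 0 in all bulls. Ensembl transcripts held 88.2% and 36.4% of the value in calf 1 and calf 2, and assembled transcripts held all of it in the library labelled calf 3 and in the bulls. The other 4 genes of this group, LGR5, LGR6, RSPO1 and RSPO4, were below an FPKM of 1 in every library but the one labelled calf 3, which had 1.3 for LGR5 and 3.1 for LGR6.

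Of the 9 antagonists, 3 were tested, and DKK3 and SFRP1 fell, against 9.61% of all genes tested. DKK3 held most of the summed level. DKK3, a secreted glycoprotein that is the divergent member of its family, is at chromosome 15, 40685311 to 40735279. Its FPKM was 195, 185 and 71.3 in the calves and 18.0, 18.2 and 19.4 in the bulls. Calf 1 and calf 2 stood about together, the library labelled calf 3 lay between them and the bulls, and the groups did not overlap. The log2 fold change was -2.82 (SE 0.41, limma adjusted p = 0.0016) with all libraries and -3.29 (limma adjusted p = 1.31e-06) without the library labelled calf 3. Summed FPKM of the 9 antagonists was 212, 193 and 81.9 in the calves and 22.2, 24.2 and 24.5 in the bulls. The Sertoli cell marker sums given above had the same order of libraries at the top, calf 1, calf 2 and then the library labelled calf 3. In the library labelled calf 3 that sum was mostly CLU, and 6 of the 8 markers lay below every bull. The part of these markers in this result was not tested.

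Below the gene level, DKK3 had a further transcript. The Ensembl transcript DKK3-201 had an FPKM of 195, 185 and 71.2 in the calves and 14.5, 15.4 and 15.3 in the bulls, a log2 fold change of -3.1 (limma adjusted p = 0.0012). An assembled transcript over part of the locus (chromosome 15, 40707684 to 40735279) had 0.151, 0.186 and 0.0903 in the calves and 3.13, 2.58 and 4.13 in the bulls. The latter rose by 1.89 on the log2 scale (limma adjusted p = 0.000274), and by 1.86 without the library labelled calf 3, and it passed the filter through the bulls alone, which fixed its direction. The Ensembl transcripts still held 82.3% of the bull value.

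SFRP1, a secreted frizzled-related protein that binds WNT ligands, had an FPKM of 2.19, 2.75 and 5.51 in the calves and 0.501, 0.507 and 1.46 in the bulls. The groups did not overlap, the highest value was that of the library labelled calf 3, and bull 3 stood above the other bulls. In limma its log2 fold change was -1.27 (SE 0.34, limma adjusted p = 0.0213), and -0.96 (limma adjusted p = 0.0140) without the library labelled calf 3, short of a call. It also lost the call without bull 1 (limma adjusted p = 0.112) or bull 2 (limma adjusted p = 0.110). DKK2 had 7.51, 1.20 and 1.33 in the calves and 1.44, 2.73 and 1.37 in the bulls. Calf 1 alone set the direction of DKK2, whose log2 fold change was -0.34 with calf 1 and 0.30 without it. Of the other antagonists, DKK1, DKK4, SFRP4 and SFRP5 were below an FPKM of 1 in every library, and SFRP2 and FRZB reached at most 0.590 and 0.878 in bulls and 4.13 and 1.47 in calves.

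The dishevelled genes, which carry the signal from frizzled into the cell, were tested in full. DVL1 had an FPKM of 8.27, 8.47 and 10.7 in the calves and 3.66, 4.23 and 3.53 in the bulls. All bulls lay below all calves. For DVL1 the log2 fold change was -1.07 (SE 0.18, limma adjusted p = 0.00296), and -0.97 (limma adjusted p = 0.000895) without the library labelled calf 3, just short of the size set for a call. DVL2 had 20.6, 22.7 and 4.25 in the calves and 28.5, 22.5 and 20.4 in the bulls. Apart from the low library labelled calf 3 the groups overlapped, and DVL2 was not called with it (0.82, limma adjusted p = 0.288) or without it (0.12, limma adjusted p = 0.529). DVL3 was at 6.92, 7.12 and 8.64 in the calves and 9.68, 11.6 and 15.1 in the bulls. It had a log2 fold change of 0.60 (limma adjusted p = 0.0501), not called, and of 0.69 (limma adjusted p = 0.0161) without the library labelled calf 3.

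None of the 6 genes of the destruction complex and beta-catenin was called by limma, with or without the library labelled calf 3. Of all genes tested, 35.7% were called higher and 9.61% lower with it, and 39.5% and 12.2% without it. At an unadjusted limma p below 0.05, there was 1 with it (CTNNB1) and 4 without it (CTNNB1, GSK3B, GSK3A and APC). Over the WNT pathway genes tested, 19 of 32 and 23 of 30 were below that p, and the share over all genes is not given here. CTNNB1, which encodes beta-catenin (chromosome 22, 13798884 to 13845848), was the highest of the 6. Its FPKM was 79.6, 61.9 and 103 in the calves and 43.0, 45.0 and 44.8 in the bulls. Every bull lay below every calf. The log2 fold change of -0.83 (SE 0.21, limma adjusted p = 0.0177) passed the p but not the size, as did -0.65 (limma adjusted p = 0.00391) without the library labelled calf 3. It was called lower under quantile normalization (-1.61), under the common total (-1.19) and without calf 2 (-1.01).

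GSK3B and GSK3A encode the kinases that mark beta-catenin. GSK3B was among the host genes of circular RNAs that the study followed, and these tables do not separate circular from linear RNA. FPKM of GSK3B (chromosome 1, 64646190 to 64861271) was 15.1, 17.3 and 32.2 in the calves and 29.2, 25.7 and 25.8 in the bulls. GSK3A (chromosome 18, 51031760 to 51042307) had 2.38, 2.58 and 7.57 in the calves and 5.50, 5.39 and 5.53 in the bulls. In both genes the library labelled calf 3 had the highest value of all, above the bulls, while calf 1 and calf 2 lay below them.

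With all libraries the log2 fold change was 0.38 (SE 0.30, limma adjusted p = 0.316) for GSK3B and 0.46 (SE 0.39, limma adjusted p = 0.348) for GSK3A. Without the library labelled calf 3 they were 0.70 (limma adjusted p = 0.00202) and 0.90 (limma adjusted p = 0.00101), past the p and short of the size. Under quantile normalization of all 6 libraries the signs turned, to -0.31 for GSK3B and -0.0089 for GSK3A. GSK3A-201, the main Ensembl transcript of GSK3A, had an FPKM of 1.33, 1.44 and 5.35 in the calves and 4.41, 4.37 and 4.40 in the bulls. It was called higher without the library labelled calf 3 (1.18, limma adjusted p = 0.00106) and not with it (0.71, limma adjusted p = 0.206).

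APC, a scaffold of the destruction complex, showed the same library apart. Its FPKM was 11.8, 15.5 and 64.3 in the calves and 6.64, 7.75 and 8.96 in the bulls. All bulls lay below all calves. The log2 fold change was -1.46 (SE 0.62, limma adjusted p = 0.0914), and -0.74 (limma adjusted p = 0.00913) without the library labelled calf 3, neither called. Quantile normalization (-2.05) and the fit without calf 1 (-1.91) gave a call. AXIN1, the other scaffold, had 8.87, 7.33 and 5.34 in the calves and 8.45, 9.59 and 8.40 in the bulls. Calf 1 lay among the bulls, and the log2 fold change of 0.28 (limma adjusted p = 0.296) turned to -0.19 under quantile normalization and -0.04 under the common total.

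AXIN2 is both a scaffold and a gene commonly read as a target of the pathway. The share of its gene value held by Ensembl transcripts differed between the groups. The gene FPKM was 2.26, 2.11 and 2.0 in the calves and 1.69, 1.60 and 1.86 in the bulls, with a log2 fold change of -0.20 (SE 0.13, limma adjusted p = 0.250), or -0.23 without the library labelled calf 3. The Ensembl transcript AXIN2-202 (chromosome 19, 62213019 to 62240091) had 1.97, 1.95 and 1.99 in the calves and 0.607, 0.372 and 0.597 in the bulls. A transcript named as antisense, AXIN2-AS1 (62223002 to 62236201), had 0.0696, 0.0721 and 0.00588 in the calves and 1.08, 1.08 and 1.23 in the bulls.

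Neither AXIN2 transcript overlapped between groups, each having passed the filter through the group where it was high, which fixed its direction. AXIN2-AS1 was called higher (1.02, limma adjusted p = 0.000159), though at 0.99 without the library labelled calf 3 it fell short of the size. AXIN2 as the sum of its Ensembl transcripts had a log2 fold change of -0.95 (limma adjusted p = 0.00247), not called. Ensembl transcripts held 97.7% of the AXIN2 value in calves and 34.3% in bulls. The libraries were strand-specific, but whether levels were counted by strand is not given in the sources used here, so reads of a gene and of its antisense partner cannot be told apart.

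LEF1, a factor that binds DNA with beta-catenin, had the largest log2 fold change of the 32 tested genes in the deposited gene values, though not in those rebuilt from Ensembl transcripts alone. Its FPKM (chromosome 6, 17081674 to 17200675) was 3.74, 3.61 and 6.43 in the calves and 50.7, 42.0 and 45.9 in the bulls. The groups lay far apart, the library labelled calf 3 being the highest calf. On the log2 scale the rise was 3.11 (SE 0.23, limma adjusted p = 0.000108), and 3.33 (limma adjusted p = 3.13e-06) without the library labelled calf 3. It was called under every scaling, filter and omitted library tried. The spermatid marker sums given above were likewise high in every bull and low in every calf. Spermatocyte marker sums were 9.90 to 27.6 FPKM in the calves and 141 to 184 in the bulls. Peritubular myoid cell sums (14.7 to 47.2 and 60.3 to 69.9) and Leydig cell sums (0.502 to 1406 and 1465 to 2738) were also higher in every bull. Sertoli cell, spermatogonium and neuron marker sums were lower in every bull, and the others overlapped. The part of these markers in this result was not tested.

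Most of the LEF1 value in bulls lay outside the Ensembl transcripts, which held 62.0% of the calf value and 19.6% of the bull value. An assembled transcript at the edge of the locus (chromosome 6, 17081674 to 17085910) stood at 0.181, 0.111 and 0.188 FPKM in the calves and 27.6, 22.6 and 26.5 in the bulls, a log2 fold change of 4.51 (limma adjusted p = 1.36e-05). Of its span, 2190 bases lay outside the Ensembl transcripts and 2047 inside. LEF1-OT1, named as overlapping, had at most 0.0273 in the calves and 7.20, 5.37 and 5.18 in the bulls. Both passed the filter through the bulls alone. So the value of the locus in bulls was mostly that of transcripts whose relation to the LEF1 protein is not given in the sources used here.

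Among the Ensembl transcripts of LEF1, LEF1-203 had an FPKM of 0.655, 0.358 and 1.38 in the calves and 7.05, 6.73 and 4.55 in the bulls. It rose by 2.0 on the log2 scale (limma adjusted p = 0.00176), and by 2.23 without the library labelled calf 3. LEF1-201 and LEF1-202 overlapped between groups and were not called. Summed over Ensembl transcripts alone, LEF1 had 2.22, 2.1 and 4.23 in the calves and 9.01, 9.24 and 8.87 in the bulls, and was still called higher at 1.43 (limma adjusted p = 0.00491), a smaller change than that of the deposited gene value.

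**Figure D3:**
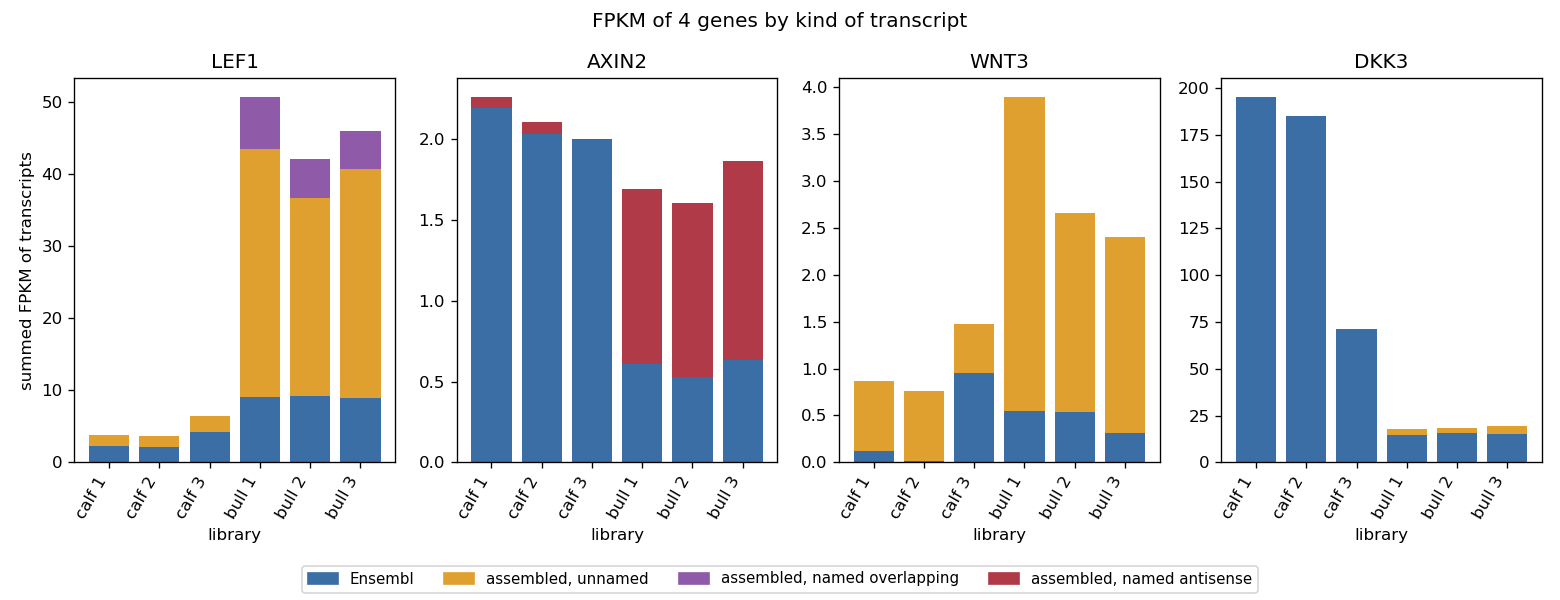
Summed FPKM of the transcripts of LEF1, AXIN2, WNT3 and DKK3 in each library, stacked by kind: Ensembl, assembled without a name of its own, assembled and named as overlapping, and assembled and named as antisense. In the bulls, Ensembl transcripts hold 19.6% of LEF1, 34.3% of AXIN2, 15.6% of WNT3 and 82.3% of DKK3.

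None of the 3 TCF factors was called with all libraries, TCF7 having failed the filter, against 35.7% higher and 9.61% lower of all genes tested. TCF7L1 and TCF7L2 were among the 19 of 32 tested WNT pathway genes below an unadjusted limma p of 0.05. TCF7L2 had an FPKM of 2.54, 3.57 and 20.0 in the calves and 0.792, 1.12 and 1.43 in the bulls, all bulls below all calves. For TCF7L2 the log2 fold change was -1.73 (SE 0.68, limma adjusted p = 0.0734), and -0.94 (limma adjusted p = 0.00529) without the library labelled calf 3, neither called, while quantile normalization (-2.28) and the fit without calf 1 (-2.22) gave a call. TCF7 had 2.59, 4.6 and 0.517 in the calves and 0.821, 0.952 and 0.853 in the bulls. The library labelled calf 3 lay below the bulls, and TCF7 was tested only in the added fit, through calf 1 and calf 2 alone, which fixed its direction, at -1.26 (limma adjusted p = 0.00279).

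TCF7L1, a factor known mostly as a repressor, had an FPKM of 0.886, 1.03 and 1.99 in the calves and 2.60, 2.25 and 2.81 in the bulls. All bulls lay above all calves, with a log2 fold change of 0.65 (limma adjusted p = 0.0430) that was not called, nor was 0.86 without the library labelled calf 3. The Ensembl transcript TCF7L1-201 overlapped between groups, at 0.370 to 0.710 in the calves and 0.462 to 0.637 in the bulls. It held 41.1% of the calf value and 22.0% of the bull value, and transcripts named as antisense were among the others.

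Over all 59 genes the transcript table listed 173 transcripts, and 43 of 25 genes were tested. Of these, 7 were called higher and 7 lower, against 34.8% and 9.37% of the 23212 transcripts tested, and without the library labelled calf 3 9 and 6, against 39% and 11.1%. Of 35 Ensembl transcripts tested, 2 were higher (LEF1-203 and WNT3A-201) and 7 lower. Without the library labelled calf 3 they were 5 and 6. With all libraries, 3 of the 35 passed the filter through the calves alone and 1, WNT3A-201, through the bulls alone. Their direction was fixed by the filter. Of 8 assembled transcripts 5 were called, all higher, but 4 of these 5 passed the filter through the bulls alone and could only be higher. Whether the kinds differed was not tested. Assembled transcripts called higher were those of LEF1, DKK3 and AXIN2 given above and a further LEF1 transcript. Ensembl transcripts held under 50% of the bull value in 7 of the 32 tested genes (21.9%), against 14.4% of the tested Ensembl genes, and under 50% of the calf value in 3 (9.38%), against 10.9%. When genes were rebuilt from Ensembl transcripts alone, an alternative chosen after seeing the data, 27 of the WNT pathway genes were tested and 2 were higher and 8 lower, against 25.6% and 11.7% of all genes.

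Ratios of related genes within a library do not depend on its scaling, and 5 were compared by a two-sided exact permutation test, in which 3 against 3 cannot go below p = 0.1. The ratio of TCF7L2 to TCF7L1 in FPKM was 2.87, 3.47 and 10.1 in the calves and 0.305, 0.50 and 0.509 in the bulls. TCF7L2 was the higher gene in every calf and the lower in every bull, a log2 difference of -3.45 (exact permutation p = 0.1, adjusted p = 0.167). From Ensembl transcripts alone the difference was -1.99, and TCF7L2 lay above TCF7L1 in all bulls, at 1.11, 1.82 and 2.55.

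The ratio of DVL1 to DVL2 was 0.401, 0.373 and 2.51 in the calves and 0.128, 0.188 and 0.173 in the bulls. Here the library labelled calf 3 was the one with DVL1 above DVL2. The log2 difference was -2.16 (exact permutation p = 0.1, adjusted p = 0.167), and -1.26 without that library. For AXIN2 to AXIN1 it was -0.63 (exact permutation p = 0.1, adjusted p = 0.167), -0.47 without that library, and -2.14 from Ensembl transcripts alone.

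GSK3B exceeded GSK3A in FPKM in every library, at 6.37, 6.71 and 4.26 times in the calves and 5.30, 4.77 and 4.66 times in the bulls. The groups overlapped through the library labelled calf 3, and the log2 difference of -0.21 gave an exact permutation p of 0.4 (adjusted p = 0.5). Without that library it was -0.41 (exact permutation p = 0.1, the smallest that 2 against 3 allows). From Ensembl transcripts alone, GSK3B was 11.1, 11.2 and 6.03 times GSK3A in the calves and 6.61, 5.88 and 5.86 times in the bulls. The log2 difference was then -0.58 (exact permutation p = 0.2, adjusted p = 0.25), and the groups still overlapped. Ensembl transcripts held 58.5% of the GSK3A value in calf 1 and calf 2 and 80.3% in the bulls. The ratio of DVL3 to DVL2 overlapped between groups (exact permutation p = 1), and its log2 difference of -0.24 turned to 0.64 without the library labelled calf 3.

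**Figure D4:**
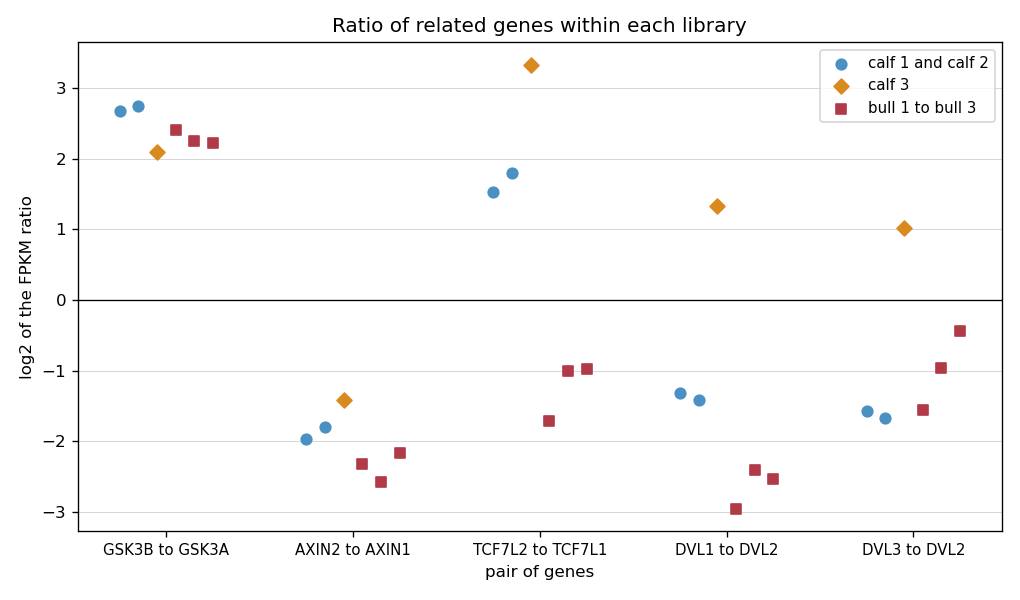
Log2 of the FPKM ratio of 5 pairs of related genes, with 1 point per library. Circles are calf 1 and calf 2, diamonds the library labelled calf 3 and squares the bulls. The ratio of TCF7L2 to TCF7L1 lies above 0 in all calves and below 0 in all bulls, and that of GSK3B to GSK3A lies above 0 everywhere.

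Of the 59 genes, 17 were below an FPKM of 1 in every library. The library labelled calf 3 had the highest value of all libraries in 16 of the 59 and the lowest in 11, and the shares over all genes are not given here. Among the tested genes, it lay at least 4-fold above the mean of calf 1 and calf 2 in APC and TCF7L2 and at least 4-fold below it in DVL2 and WNT6, on the log2(FPKM + 1) scale, against 5.42% and 5.45% of all genes tested. Calf 1 and calf 2 were 4-fold apart in 0.397% of them. PORCN, the enzyme that attaches the lipid to WNT ligands, had an FPKM of 7.50 there and at most 0.733 in the other libraries. It failed the filter.

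Other genes of the pathway were taken from a list of 74 found in the table, of which 63 were tested. With all libraries 12 rose and 14 fell in bulls, against 35.7% and 9.61% of all genes tested. Without the library labelled calf 3 they were 14 and 16 of 60, against 39.5% and 12.2%. The median log2 fold change of the 63 was -0.46, against 0.43 over all genes tested. Of the 18 partners of the destruction complex, 7 rose and 5 fell, and of the 19 nuclear partners 2 rose and 4 fell. Of 7 tested transcripts often used as readouts of the pathway, 2 were called, CD44 and TNFRSF19, both lower. Without the library labelled calf 3 MYC was called as well, at -2.65 (limma adjusted p = 4.55e-05), with an FPKM of 12.9, 9.03 and 1.32 in the calves and 0.773 to 1.01 in the bulls.

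DKKL1, a relative of DKK3 known from developing sperm and their acrosome, had an FPKM of 14.1, 7.32 and 0.337 in the calves and 468, 486 and 432 in the bulls. Every bull lay far above every calf. Its log2 fold change was 6.39 (SE 0.87, limma adjusted p = 0.0013), and 5.36 without the library labelled calf 3, so DKKL1 and DKK3 were called in opposite directions. WLS, the carrier that takes WNT ligands to the cell surface, was lower in bulls, as DKK3 was. It had 26.4, 23.8 and 20.2 in the calves and 7.84, 3.41 and 4.88 in the bulls, and its log2 fold change was -1.99 (SE 0.29, limma adjusted p = 0.00161), or -2.09 without the library labelled calf 3.

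Further calls fell on kinases and their partners, given as log2 fold changes with all libraries and, in brackets, without the library labelled calf 3. FRAT1 and FRAT2, proteins that bind GSK3, rose by 2.29 (2.25) and 2.08 (2.12). Of the 6 casein kinase 1 genes on the list, CSNK1G2 rose by 2.24 (2.13), CSNK1G1 by 1.49 (1.32) and CSNK1A1 by 1.17 (1.24), CSNK1E and CSNK1G3 had changes of -2.05 (-2.0) and -1.63 (-1.79) and were called lower, and CSNK1D was not called at 0.78 (0.65). The tankyrases, which act on AXIN, were called in opposite directions, TNKS at 1.55 (1.87) and TNKS2 at -1.27 (-1.19). BTRC, which recognises marked beta-catenin, rose by 1.65 (2.12). RUVBL1, an ATPase that also acts in chromatin remodelling, rose by 3.1 (2.83), and CELSR3, a planar polarity cadherin, by 1.69 (2.05). CSNK1G1, CSNK1A1, CSNK1D and TNKS2 were added to these after their values were seen.

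The other lower genes with large changes were CD44 at -2.01 (-2.27), the feedback inhibitor NKD2 at -1.95 (-1.32), TNFRSF19 at -1.86 (-1.44), the corepressor CTBP2 at -1.76 (-1.96) and the APC partner AMER1 at -1.89 with all libraries, where it passed the filter through the calves alone. BTRC was not called under quantile normalization or the common total, and TNKS not under quantile normalization (0.84). BTRC, NKD2 and TNFRSF19 were not called when any bull was left out.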

How the data were processed

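Testes of 3 calves and 3 bulls were compared, 1 library per animal as far as the labels say. Per the labels and the Methods, the authors removed ribosomal RNA, built strand-specific libraries, mapped reads to the genome and assembled transcripts. The deposited tables hold FPKM per gene and per transcript, with no counts, so the depth behind a value is unknown from them and no counting interval was computed. The tool that made these FPKM values is not given in the sources used here. UMD3.1.1 is the assembly that the Methods give, but 1050 genes lie on scaffolds named as in ARS-UCD and 59 of the 59 genes overlap the RefSeq locus of the same symbol on ARS-UCD2.0, so positions are given as in the tables.

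Values were taken as log2(FPKM + 1) and fitted with limma 3.58.1 in R 4.3.3, 2 groups, no covariate and an empirical Bayes trend. The fit was over all genes or transcripts that reached an FPKM of 1 in 3 or more of 6 libraries. The code was run on simulated data whose spread was taken without the library labelled calf 3. That run cannot show how the fits behave with this library. A log2 fold change on this scale understates the change of low genes. Figures used Python 3.11.15 and matplotlib 3.10.9. Values are given in every library for genes called with or without the library labelled calf 3, and for the destruction complex, beta-catenin and co-receptor genes. The same holds for the 2 highest genes of each role, for genes of a 4-fold deviation in that library, and for WLS and DKKL1. PORCN is given as its value in that library and its highest value elsewhere. Of the other pathway genes, the 8 largest changes each way are given as log2 fold changes. A planned ratio of LRP6 to LRP5 was not computed. The genes and lists were chosen with earlier results of these data known. Alternatives were another pseudocount, filters, scalings, array weights, a replicate block, no trend and the omission of each library.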

Additional observations from a re-analysis of the deposited data

How the results depend on the processing

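For 42 genes named above, 653 log2 fold changes were computed under the alternatives. Of these, 585 kept their direction and their side of the threshold, 37 kept the direction and lost the call, 25 gained one and 6 turned direction. The turns were GSK3A (-0.0089), GSK3B (-0.31) and AXIN1 (-0.19) under quantile normalization, AXIN1 under the common total (-0.036), WNT6 without calf 2 (0.27, in a range of -2.06 to 0.27 with 1 library left out in turn) and DKK2 without calf 1 (0.30, in a range of -0.68 to 0.30), none of them called where it turned. The cause was not tested. The number of WNT pathway genes called higher was 4 with array weights and in the added fit without the library labelled calf 3, and 1 to 4 with 1 library left out in turn. WNT3A could not be tested when 1 bull was left out, nor FZD7 or WNT9A when 1 calf was left out. With array weights 6 were lower, 4 of them among the 7 named above, and SFRP1 (-0.999), LRP6 (-0.87) and DVL1 (-0.96) fell short of the size. Array weights called 6867 genes higher and 2470 lower of all 18115 tested. The number called lower was 12 under quantile normalization and 3 to 6 with 1 library left out, being 4 without the library labelled calf 3 and 3, 3 and 4 without bull 1, bull 2 and bull 3. Of the other pathway genes, 6 were higher and 27 lower under quantile normalization, where 25.9% and 21.6% of all genes were called. With 1 library left out they were 10 to 14 and 10 to 16, while 2478 to 6838 and 1019 to 2117 of all genes were called. Of transcripts, 11 were lower under quantile normalization, and 1 to 9 were higher and 3 to 7 lower with 1 library left out. Over all genes, calls numbered 8215, 5124 from Ensembl transcripts alone, and 3519 to 8955 with 1 library left out, the 3 lowest being 3519, 3551 and 3593 without bull 1, bull 2 and bull 3. The log2 difference of the DVL3 to DVL2 ratio ranged from -0.71 to 0.64 with 1 library left out, and turned to 0.64 without the library labelled calf 3 and to 0.045 without bull 1.

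Little pairing of the libraries by replicate number was seen. The correlations of deviations from the group means were 0.028, 0.025 and 0.034 for same-numbered calf and bull. For the other pairs of calf and bull they were lower, at -0.049 to 0.022, and all were small. With the replicate block, 2 genes were called higher and 7 lower, the same genes as without it. Where a calf or a bull was left out, the groups were 2 against 3 and the fit had fewer residual degrees of freedom. Genes reaching an FPKM of 1 in 1 group alone could not be tested with a library of that group left out. The genes tested numbered 14344 to 14437 without 1 bull and 17308 to 17329 without 1 calf. With no counts, what depth limits could not be measured.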
